A study of Mus musculus with 18 samples.

Results

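The Zfp900-series genes of the mouse are the genes whose symbols run from Zfp900 to Zfp999, and nearly all of them encode Krüppel-type zinc finger proteins. Members were chosen by symbol, with a total of at least 10 counts over 18 RNA-seq libraries, and the rule used no difference between groups. Of 32 symbols of this form among 45706 genes in the count table, 31 met the rule. Zfp957 did not, since it had 0 counts in every library. All 31 members passed the filter on low counts and were tested with 16619 genes in all.

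A Krüppel-type zinc finger is a short C2H2 unit that contacts a few bases of DNA, and arrays of such units let a protein recognise long target sequences. Many of these proteins carry a KRAB domain at the amino terminus, which binds the corepressor Trim28 and through it brings the H3K9 methyltransferase Setdb1 to DNA. In pluripotent stem cells this machinery is known for silencing retrotransposons, and rodent genomes hold many young members of the family in clusters of neighbouring copies.

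The libraries came from induced pluripotent stem cells (iPSCs), wild type (wt) or Hmga2 knockout (KO), taken at 0 h or at 24 h after induction towards epiblast-like cells (EpiLCs) with Activin A and bFGF. Hmga2 is an AT-hook chromatin protein. Each of 6 groups held 3 libraries: wt, KO clone #1 and KO clone #2 at 0 h, and the same at 24 h. Before induction every line was kept on inactivated fibroblast feeder cells in medium with leukaemia inhibitory factor and inhibitors of MEK and GSK3, and cells were then plated on a coated surface without such a layer. Each genotype rested on 1 wt clone and 2 KO clones, so genotype and clone cannot be told apart.

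Totals ran from 3466436 to 23872837 counts per library. Values are given as CPM, counts of a gene per 1000000 counts of its library after TMM scaling, and the limit that 3 counts set lay between 0.116 and 0.984 CPM. Hmga2 itself was 17.7 ± 4.53 CPM (SD, n = 3) in wt at 0 h, 5.50 ± 4.28 in KO#1 (log2 fold change -1.71, adjusted p = 0.124) and 4.73 ± 3.25 in KO#2 (-1.90, adjusted p = 0.023). At 24 h it was 5.77 ± 0.226 CPM in wt, 2.26 ± 1.40 in KO#1 and 5.65 ± 4.17 in KO#2, so at that time the libraries labelled KO#2 were not lower than wt (log2 fold change -0.04, adjusted p = 0.966). The lines named KO#2 below are therefore the libraries labelled KO#2. Summed markers followed the labels in time: the summed level of 9 naive pluripotency genes was 1950 to 3910 CPM over the 0 h libraries and 288 to 613 CPM at 24 h. The sum of 8 formative genes rose from 105 to 205 CPM to between 555 and 2210 CPM. In each line 7 of the 9 naive genes were called lower over time and 7 of the 8 formative genes higher. The 6 primitive endoderm genes summed at 0 h to 4.59 to 5.50 CPM in wt, 6.26 to 9.51 CPM in KO#1 and 8.35 to 11.2 CPM in KO#2. At 24 h they summed to 1.30 to 1.94, 3.24 to 8.08 and 13.6 to 27.4 CPM. The share of counts on protein-coding genes was 52.6% to 66.7% in wt and 62.0% to 77.4% in KO#1 at 0 h, 41.3% to 63.4% in both at 24 h, and 76.3% to 84.7% in all 6 libraries labelled KO#2.

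The members were spread over 10 chromosomes, with 10 on chromosome 17 and 5 each on chromosomes 7 and 8. With neighbours joined at gaps of at most 1 Mb, 7 formed a cluster on chromosome 17 (Zfp948, Zfp942, Zfp943, Zfp947, Zfp944, Zfp946 and Zfp945, chr17:21567008-22867134 on GRCm38) and 3 a cluster on chromosome 8 (Zfp930, Zfp964 and Zfp963, chr8:69209038-69749970). The remaining 21 lay outside both clusters. In the longest coding sequence of each gene, a C2H2 pattern was found 0 to 18 times (median 11 over 30 members) and a KRAB pattern in 20 of 30. Zfp945 had the most fingers, 18. Zfp935 had a KRAB pattern and no finger. Zfp939 is annotated as a transcribed unprocessed pseudogene, so it has no coding sequence.

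Reads could be assigned with unequal confidence. The median member had 97.3% of its 75-base windows to itself. Zfp935 had 0%, since 99.2% of its windows are shared with Gm49359, and it also overlaps Zfp934 on the same strand of chromosome 13. Zfp960 had 24.7% of its windows to itself and shared 74.7% with Zfp97. Zfp963 had 62.3%, with 37.6% shared with Gm20422, and Zfp932 had 73.6%, with 24.9% shared with Gm15446. Values of these 4 genes are uncertain to that extent. Zfp951, Zfp930, Zfp933, Zfp938, Zfp948, Zfp949 and Zfp958 shared no window with another gene.

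Most members were weakly expressed. The mean over 18 libraries ranged from 0.516 CPM for Zfp964 to 61.5 CPM for Zfp936, with a median of 5.84 CPM, and 19 members had under 10 counts in at least 1 library. The 5 with the highest mean were Zfp936 (61.5 CPM), Zfp961 (59.6), Zfp960 (34.1), Zfp945 (23.3) and Zfp958 (17.2). Per kilobase of exon, the order at the top was Zfp936 (18.8 CPM per kb), Zfp961 (13.8), Zfp960 (12.8) and Zfp958 (7.28). Zfp945, with 10173 exonic bases, came 11th per kilobase at 2.29 CPM per kb. In the chromosome 17 cluster the mean CPM was highest for Zfp945 and lowest for Zfp947 (3.27 CPM). In the chromosome 8 cluster it was highest for Zfp930 (10.1 CPM) and lowest for Zfp964.

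The summed level of all members showed which libraries carried the differences. At 0 h it was 107, 256 and 204 CPM in the 3 wt libraries, 209, 264 and 194 CPM in KO#1, and 433, 518 and 503 CPM in KO#2. At 24 h it was 492, 387 and 207 CPM in wt, 575, 365 and 178 CPM in KO#1, and 420, 448 and 513 CPM in KO#2. All libraries labelled KO#2 at 0 h lay above all others at 0 h, whereas at 24 h the 3 groups overlapped. Library 1 of wt at 0 h, the smallest with 3466436 counts, was the lowest of its group for 27 of 31 members. Library 3 was the lowest for 30 of 31 members in wt at 24 h and for 26 of 31 in KO#1 at 24 h. The median coefficient of variation between replicates was 16.7% and 16.6% in KO#2 at 0 h and 24 h, and 30.1% to 61.1% in the other 4 groups.

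**Figure D1:**
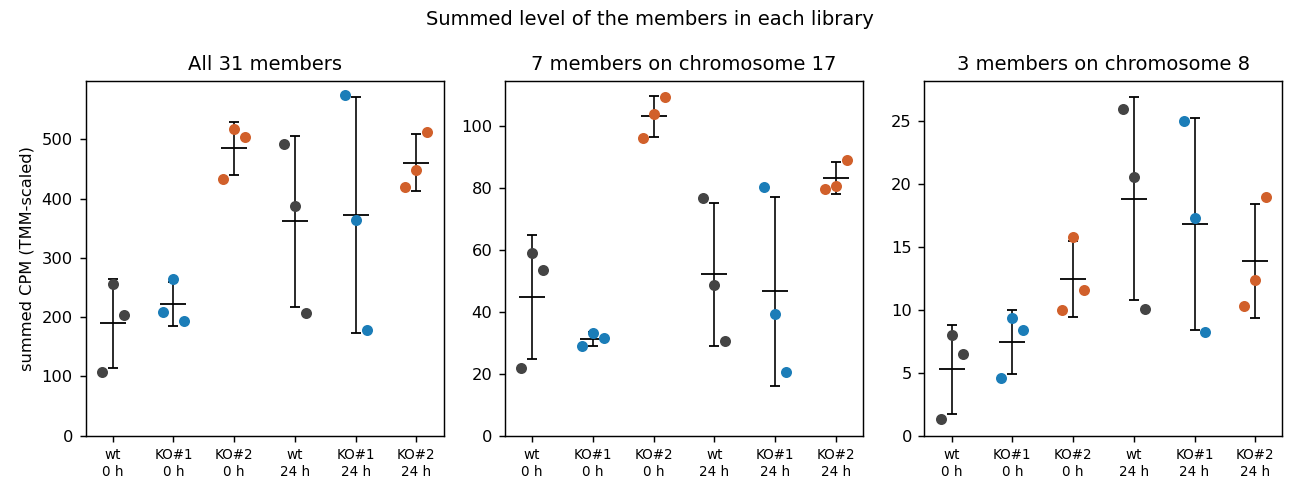
Summed CPM of the members (y axis, TMM-scaled) in each library, for all 31 members, for the 7 of the chromosome 17 cluster and for the 3 of the chromosome 8 cluster. Points are libraries 1 to 3 of each group from left to right, and bars give the mean and SD; for all 31 members the 3 libraries of KO#2 at 0 h sit between 433 and 518 CPM, above the other 0 h libraries.

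Zfp951 was the member with the largest difference between KO and wt, and it was lower in both KO clones at 24 h. It lies at chr5:104813169-104860070 on the minus strand and encodes a KRAB protein with 10 fingers by pattern. At 24 h it was 56.9, 53.8 and 21.4 CPM in wt, 6.03, 3.88 and 2.49 CPM in KO#1, and 8.88, 5.03 and 5.17 CPM in KO#2. The lowest wt library was above every KO library. In KO#1 the level was 10.7-fold lower than in wt (log2 fold change -3.41 ± 0.45 SE, edgeR adjusted p = 6.69e-05), and in KO#2 it was 6.93-fold lower (-2.79 ± 0.43, adjusted p = 0.000127). These comparisons share the wt libraries. In bulk RNA, fewer cells that express a gene and less of its RNA per cell cannot be told apart, here and in what follows. The call was made under all 9 alternative settings and without any 1 of the 6 libraries in each comparison. Markers of the transition differed between the lines at the same time. The 9 naive genes summed to 288 to 300 CPM in wt, 428 to 491 CPM in KO#1 and 289 to 613 CPM in KO#2, with 4 higher in KO#1 than in wt (median log2 fold change 1.02) and 5 in KO#2 (1.10). The 8 formative genes summed to 1331 to 2210, 578 to 1160 and 555 to 1294 CPM, with 4 lower in KO#1 (median -1.20) and 2 in KO#2 (-0.56). Their part in the difference of Zfp951 was not tested.

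At 0 h the same gene was 7.54, 21.9 and 14.6 CPM in wt, 5.47, 5.22 and 3.21 CPM in KO#1, and 11.9, 7.02 and 10.2 CPM in KO#2. KO#1 was again below every wt library (log2 fold change -1.73 ± 0.45, adjusted p = 0.0237), a call that was lost when wt library 2 or 3 or KO#1 library 3 was left out, and with only the compared groups in the fit. KO#2 overlapped wt (-0.64 ± 0.41, adjusted p = 0.228). From 0 h to 24 h Zfp951 rose in wt (1.55 ± 0.42, adjusted p = 0.00536). Its change over time was -0.14 ± 0.45 in KO#1 and -0.61 ± 0.41 in KO#2, neither called. The change over time in a KO line minus the change in wt was -1.68 ± 0.61 for KO#1 (edgeR adjusted p = 0.308) and -2.16 ± 0.59 for KO#2 (adjusted p = 0.0676), so in this fit a difference in response was not established for either clone. DESeq2 and edgeR without a filter on low counts called 2 and 6 members lower for KO#2 (9.33% and 5.9% of all genes called).

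The stretch before the start of Zfp951 is shown because no other member was called against wt in both KO clones at 24 h. It covers chr5:104860071-104860318 (GRCm38.p6, RefSeq), is written 5′ to 3′ on the minus strand, and ends just before the annotated start. Capitals mark the ETS core CCGGAA, or its complement TTCCGG, which overlap here.
Zfp951: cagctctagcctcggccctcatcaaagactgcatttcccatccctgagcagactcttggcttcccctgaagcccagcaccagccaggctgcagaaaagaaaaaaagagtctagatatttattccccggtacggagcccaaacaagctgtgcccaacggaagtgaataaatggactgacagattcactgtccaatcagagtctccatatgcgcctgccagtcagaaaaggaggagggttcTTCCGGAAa

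**Figure D2:**
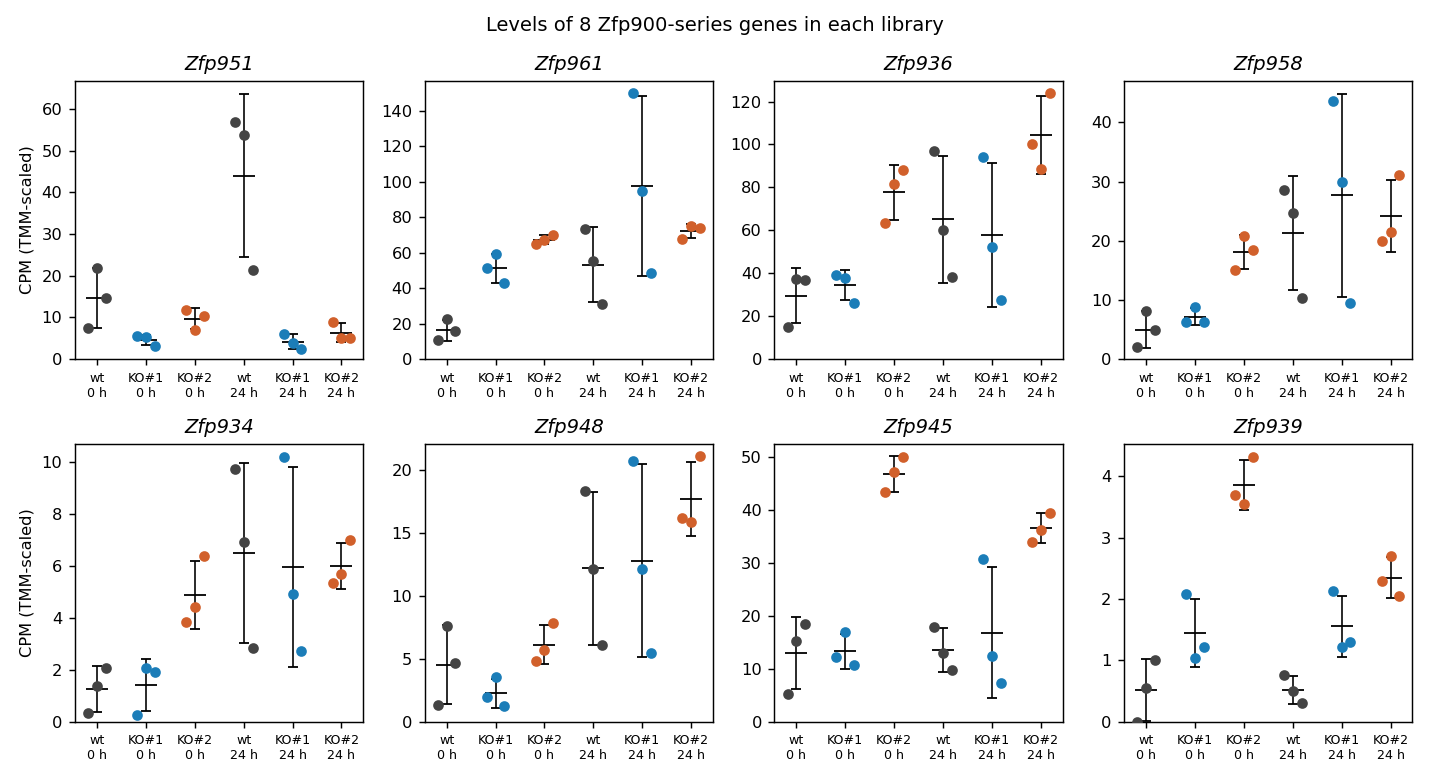
Levels of 8 members (y axes, TMM-scaled CPM, from 0) in the 18 libraries. Points are libraries 1 to 3 of each group from left to right, bars the mean and SD; Zfp951 is at 21.4 CPM or more only in wt at 24 h and 1 wt library at 0 h, while Zfp945 and Zfp939 are highest in KO#2 at 0 h.

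Over the first 24 h of EpiLC induction, 7 members rose in wt and none fell, against 50.7% of all genes called in either direction and 26% called higher. Those 7 were Zfp934 (log2 fold change 2.16 ± 0.61), Zfp958 (1.99 ± 0.49), Zfp930 (1.97 ± 0.54), Zfp961 (1.69 ± 0.36), Zfp951 (1.55), Zfp948 (1.31 ± 0.52) and Zfp936 (1.11 ± 0.41). The share of members called, 22.6%, was below that of all genes. The median log2 fold change of the members was 0.50 and that of all genes 0.03. When only library sizes were used for scaling, without TMM factors, the 2 medians became -0.16 and -0.58, and 4 members were called higher and 2 lower (44.7% of all genes called), so the direction of the members' median depends on the scaling while its distance from all genes stayed positive. Most feeder fibroblast markers fell over the same time, 6 of 8 in wt (median -2.85) and 6 of 8 in KO#1 (median -2.27), while 1 of 8 was higher in each. The part of these markers in the members' changes over time was not tested.

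Zfp961 is on chromosome 8 outside the cluster, and it overlaps Gm45694 on the same strand and Cyp4f18 on the other strand. Zfp961 was 10.5, 22.4 and 15.7 CPM in wt at 0 h and 73.5, 55.3 and 30.9 CPM at 24 h. The groups did not overlap, and the call (adjusted p = 0.00101) was made under every setting and without any 1 library. Zfp958, on the same chromosome, went from 1.97, 8.08 and 4.92 CPM to 28.6, 24.7 and 10.4 CPM (adjusted p = 0.003). Zfp934 went from 0.328, 1.38 and 2.09 CPM to 9.74, 6.91 and 2.84 CPM (adjusted p = 0.00736). In each of these the 24 h libraries were all above the 0 h libraries, with library 3 the lowest at 24 h. The calls of Zfp936 and Zfp948 in wt were lost without library 1 at 0 h, and without library 1 or 2 at 24 h. That of Zfp948 was also lost without library 3 at 0 h, and both were lost with library sizes alone and with the replicate number as a block. Over all settings the adjusted p reached 0.398 for Zfp936 and 0.306 for Zfp948, and Zfp951 was not called with library sizes alone (0.83, adjusted p = 0.109).

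In KO#1, 7 members rose from 0 h to 24 h and none fell (40.8% of all genes called, 20.1% higher). They were Zfp948 (2.62 ± 0.57, adjusted p = 0.00169), Zfp934 (2.05 ± 0.61), Zfp958 (1.97 ± 0.49), Zfp930 (1.44 ± 0.54), Zfp932 (1.43 ± 0.45), Zfp953 (1.15 ± 0.42) and Zfp961 (0.94 ± 0.35). Zfp932, with its paralogue Gm15446, is known to repress an endogenous retrovirus group in embryonic stem cells. 5 of the 7 members called in KO#1 were also among the 7 called in wt: Zfp930, Zfp934, Zfp948, Zfp958 and Zfp961. Only Zfp948 and Zfp958 stayed called without any 1 library. The calls of Zfp961, Zfp930 and Zfp953 stayed in 1, 2 and 2 of 6 such fits. Without KO#1 library 1 at 24 h 2 members were called (29.7% of all genes). Leaving out KO#1 library 1, 2 or 3 at 0 h gave 3, 5 and 4 calls (26.4%, 32.5% and 41.3% of all genes), and leaving out library 2 at 24 h gave 4 (29.9%). With library sizes alone 1 member was called higher and 2 lower (44.1% of all genes called). The members' median was 0.35 against 0.00 for all genes, and -0.47 against -0.78 with library sizes alone.

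In the libraries labelled KO#2, 1 member rose (26% of all genes called, 12.7% higher). This was Zfp948, at 4.79, 5.71 and 7.82 CPM at 0 h and 16.1, 15.8 and 21.1 CPM at 24 h (log2 fold change 1.53 ± 0.50, adjusted p = 0.0293). The call was lost without KO#2 library 1 or 2 at 0 h, or library 3 at 24 h. With only the KO#2 groups in the fit, 6 members were called, 1 higher and 5 lower, with 28.1% of all genes called. Zfp948 was the 1 member called over time in all 3 lines. The members' median was -0.20 against -0.03 for all genes, and 12 of 31 members had all 3 libraries lower at 24 h than at 0 h, a pattern seen in 21.9% of all genes. Of the 6 two-cell-like markers 5 fell in KO#2 over the same time (median -1.88), as did 3 of 8 feeder markers (median -1.81), and their part in this was not tested. Zfp958, called in wt and KO#1, was 15.1, 20.8 and 18.4 CPM in KO#2 at 0 h and 19.9, 21.5 and 31.1 CPM at 24 h, so that its 0 h level was already within the range of wt at 24 h.

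Between KO#1 and wt at 0 h, 2 members were called (6.67% of all genes, 3.99% higher and 2.68% lower), Zfp951 lower as given above and Zfp961 higher. Zfp961 was 51.1, 59.3 and 42.9 CPM in KO#1 against the wt values of 10.5 to 22.4 CPM, which is 3.09-fold higher (log2 fold change 1.63 ± 0.36, adjusted p = 0.00959). No KO#1 library overlapped wt, and the call was lost only when wt library 3 was left out (adjusted p = 0.0516). Zfp961 was also called in KO#2 at 0 h, at 64.8, 67.1 and 70.0 CPM, in a comparison that shares the wt libraries. At 24 h the levels of Zfp961 in KO#1, 150, 94.5 and 48.7 CPM, were each above the wt library of the same number, with a log2 fold change of 0.87 ± 0.35 that was not called (adjusted p = 0.132, or 0.115 with the replicate number as a block). The members' median in KO#1 against wt at 0 h was -0.35, against 0.02 for all genes.

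By members called, the libraries labelled KO#2 differed more from the others at 0 h than at 24 h with TMM factors, but not with library sizes alone. Against wt, 14 of 31 members were higher and none lower (38.1% of all genes called, 21.5% higher). The largest were Zfp939 (2.57 ± 0.50, adjusted p = 0.00114), Zfp960 (2.43 ± 0.53, adjusted p = 0.00237), Zfp961 (2.03 ± 0.36, adjusted p = 0.000628), Zfp945 (1.80 ± 0.43, adjusted p = 0.00437), Zfp958 (1.76), Zfp934 (1.75), Zfp938 (1.69), Zfp949 (1.57), Zfp937 (1.45), Zfp936 (1.37), Zfp932 (1.33) and Zfp935 (1.21). The other two were Zfp933 (1.09) and Zfp954 (0.96). In all 14 the KO#2 libraries lay above every wt library, as they did for 23 of 31 members and for 29.7% of all genes. The members' median was 1.09 against 0.10 for all genes, and among 291 other Zfp genes 96 were higher and 41 lower, with a median of 0.48.

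This count depends on single libraries and on the scaling. Without wt library 1, 6 members were called (25.8% of all genes), namely Zfp939, Zfp945, Zfp949, Zfp958, Zfp960 and Zfp961. Without wt library 3 there were 9 (25.9%), and without KO#2 library 2 also 9 (28.1%). With library sizes alone 23 were called (33.1%). Zfp939, the pseudogene on chromosome 7, was 0, 0.551 and 1.00 CPM in wt at 0 h, 2.09, 1.04 and 1.23 CPM in KO#1 and 3.70, 3.55 and 4.32 CPM in KO#2. Zfp949, on chromosome 9, was 3.94, 3.67 and 2.50 CPM in wt and 8.74, 10.1 and 10.6 CPM in KO#2. Zfp960 was 3.94, 20.1 and 10.1 CPM in wt, 24.1, 51.6 and 22.8 CPM in KO#1 and 54.4, 77.9 and 60.1 CPM in KO#2. KO#2 was thus the highest of the 3 lines for each of these genes, with Zfp960 read together with its near copy Zfp97.

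Against KO#1 at 0 h, 19 of 31 members were higher in KO#2 and none lower (26.4% of all genes called, 15.1% higher). The largest were Zfp932 (2.15 ± 0.45, adjusted p = 0.00294), Zfp935 (2.07), Zfp947 (1.94), Zfp937 (1.91), Zfp942 (1.84 ± 0.46, adjusted p = 0.00799), Zfp933 (1.83), Zfp945 (1.83), Zfp934 (1.76), Zfp943 (1.62), Zfp948 (1.56), Zfp944 (1.47) and Zfp949 (1.46). The remaining 7 had log2 fold changes of 1.01 to 1.43. Zfp932 was 4.82, 3.76 and 3.21 CPM in KO#1 and 16.7, 18.8 and 16.4 CPM in KO#2, with wt between at 6.56, 8.17 and 5.84 CPM. All 19 were separate between the groups, and 27 of 31 members had every KO#2 library above every KO#1 library, as did 23.6% of all genes. Leaving out 1 library gave 9 to 13 calls, with 15.3% to 20.9% of all genes called, and the fewest came without KO#1 library 1.

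The same direction held outside the members. Of 291 other Zfp genes, 107 were higher and 12 lower in KO#2 than in KO#1 at 0 h, with a median of 0.69, against 1.40 for the members and 0.02 for all genes. KO#2 libraries at 0 h also differed in marker lists whose part in these results was not tested. The 6 tested two-cell-like markers summed to 45.3 to 145 CPM in KO#2, 7.01 to 14.4 CPM in wt and 3.65 to 12.9 CPM in KO#1, and 5 of 6 were higher in KO#2 than in KO#1. The 8 feeder fibroblast markers summed to 331 to 898 CPM in KO#2, 110 to 390 CPM in wt and 183 to 514 CPM in KO#1. Of these 8, 4 were higher in KO#2 than in wt (Col3a1, Dcn, Lox and Thy1) and 2 higher than in KO#1 (Dcn and Lox). Col1a1, a fibroblast collagen, was 90.8 ± 69.9 CPM in wt, 105 ± 74.7 CPM in KO#1 and 106 ± 107 CPM in KO#2 at 0 h. Dcn was at 0 CPM in all wt libraries at 0 h and at 4.04 ± 0.758 CPM in KO#2, but unlike the sum of the list it was higher in wt at 24 h, at 5.80 ± 2.20 CPM.

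**Figure D3:**
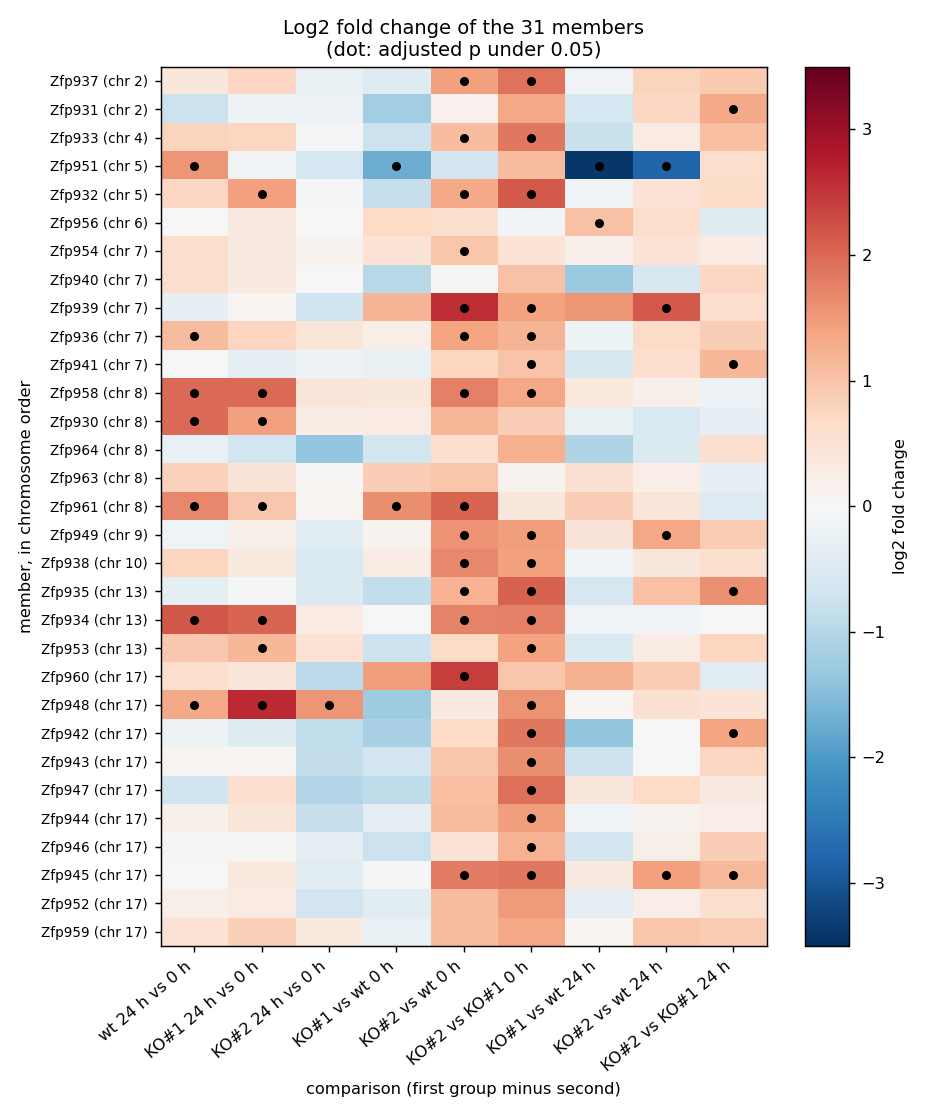
Log2 fold change (colour) of the 31 members (rows, in chromosome order) in 9 comparisons (columns), with a dot where the adjusted p was under 0.05. The columns of KO#2 against wt and against KO#1 at 0 h hold 14 and 19 dots, all positive, and the row of Zfp951 holds the lowest values, -3.41 and -2.79 at 24 h.

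The chromosome 17 cluster was higher throughout in the comparison of the KO clones at 0 h. All 7 members were called higher in KO#2 than in KO#1, with log2 fold changes of 1.21 (Zfp946) to 1.94 (Zfp947) and a median of 1.62. The calls of Zfp942 and Zfp945 held without any 1 library, while those of Zfp944 and Zfp948 held in 1 of 6 such fits each, that of Zfp946 in 3, that of Zfp943 in 4 and that of Zfp947 in 5. Zfp944 was also lost with the replicate number as a block and Zfp948 with RLE size factors, and at an adjusted p under 0.01 Zfp942 and Zfp945 were left. The 7 other tested Zfp genes in the same stretch were all positive too, 5 of them called, with a median of 1.54. The 21 members outside both clusters had a median of 1.37 with 12 called, and the 3 of the chromosome 8 cluster a median of 0.87 with none called. The shift was therefore not confined to chromosome 17, and a difference between the cluster and other members was not tested.

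The summed level of the 7 members was 28.8, 33.2 and 31.6 CPM in KO#1 at 0 h, 22.0, 58.9 and 53.4 CPM in wt, and 96.2, 104 and 109 CPM in KO#2. Against wt, the 7 members were also all positive in KO#2 (median 0.96), but 1 was called, Zfp945. Against wt in KO#1, all 7 were negative (median -0.74) and none was called. At 24 h the sums were 76.7, 48.8 and 30.7 CPM in wt, 80.2, 39.1 and 20.6 CPM in KO#1, and 79.6, 80.6 and 89.0 CPM in KO#2, and KO#1 and KO#2 overlapped while wt stayed below KO#2.

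Zfp945, at the end of the cluster (chr17:22846697-22867134, minus strand), was the 1 member of the cluster that was higher in KO#2 than in wt and KO#1 at both times. At 0 h it was 5.25, 15.1 and 18.3 CPM in wt, 12.3, 16.9 and 10.6 CPM in KO#1 and 43.2, 47.1 and 49.9 CPM in KO#2. At 24 h it was 17.8, 13.0 and 9.70 CPM in wt, 30.7, 12.4 and 7.22 CPM in KO#1 and 33.9, 36.2 and 39.4 CPM in KO#2. No wt or KO#1 library reached the lowest KO#2 library of its time. The log2 fold change was 1.83 ± 0.43 against KO#1 (adjusted p = 0.0059) and 1.80 against wt at 0 h, and 1.12 ± 0.42 (adjusted p = 0.0451) and 1.43 ± 0.42 (adjusted p = 0.0135) at 24 h. At 24 h the call against KO#1 was lost in 5 of 6 fits that left out 1 library (all but that without KO#1 library 1), with RLE size factors and with only the compared groups in the fit, and the adjusted p reached 0.18 over all settings. The call against wt was lost without wt library 3.

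**Figure D4:**
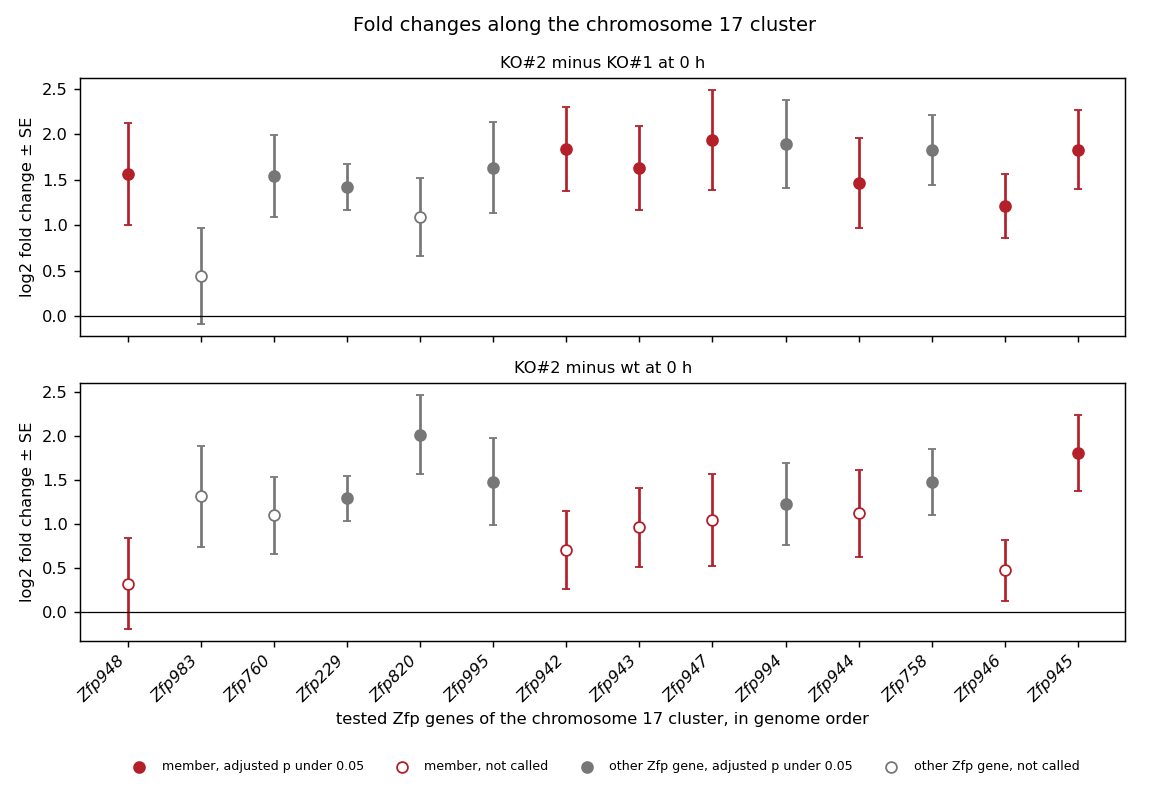
Log2 fold change ± SE (y axis) of the 14 tested Zfp genes of the chromosome 17 cluster in genome order (x axis), for KO#2 against KO#1 and against wt at 0 h. Members are red and other Zfp genes grey, filled where the adjusted p was under 0.05; all 14 values are above 0 in both panels, and all 7 members are filled in the upper panel.

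Several of these genes sit head to head. Zfp942 and Zfp943 start 88 bases apart on opposite strands, and Zfp944 and its neighbour Zfp758 start 53 bases apart. RefSeq promoters were matched for 28 of the 31 members (not for Zfp930, Zfp934 or Zfp960). Over 225 bases before the start, Zfp942 and Zfp944 were 99.6% identical, and Zfp943 and Zfp758 were 85.2% identical over 243 bases. The median identity over pairs of members was 34.4%. The bases between each pair of starts are printed here on the minus strand (GRCm38.p6), at chr17:21962465-21962551 and chr17:22361401-22361452, because they are a repeated unit within the cluster. Capitals mark an E-box, CACGTG, and an ETS core, CCGGAA, set 1 base apart.
Zfp942-Zfp943: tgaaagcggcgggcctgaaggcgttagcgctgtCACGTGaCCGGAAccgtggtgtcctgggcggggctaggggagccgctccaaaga
Zfp944-Zfp758: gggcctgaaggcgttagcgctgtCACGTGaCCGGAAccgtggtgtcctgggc

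All 4 genes of these pairs were higher in KO#2 than in KO#1 at 0 h. Zfp942 was 4.43, 4.59 and 7.36 CPM in KO#1 and 18.9, 19.7 and 21.3 CPM in KO#2. Zfp943 was 3.13, 1.25 and 1.63 CPM in KO#1 and 6.95, 6.07 and 5.71 CPM in KO#2. Zfp944 was 3.65, 2.51 and 6.01 CPM in KO#1 and 12.2, 13.0 and 9.78 CPM in KO#2. Zfp758 was 4.82, 3.76 and 4.20 CPM in KO#1 and 15.0, 14.4 and 16.2 CPM in KO#2 (log2 fold change 1.83, adjusted p = 0.00279). In each gene every KO#1 and wt library lay below the KO#2 libraries. For Zfp942 wt was at 5.25, 15.9 and 14.5 CPM.

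The promoters shared some short motifs, searched on both strands over 250 bases before the start and chosen after the sequences had been seen. The 13-letter run CACGTGACCGGAA was present in 7 of 27018 promoters (0.0259%), and those of Zfp942, Zfp943, Zfp944 and Zfp758 were 4 of these. The E-box CACGTG alone was present in 5 of the 7 cluster promoters, in 21.4% of member promoters and in 6.04% of all promoters. The ETS core CCGGAA, which the longer run contains, was present in 14 of 28 member promoters and in 12.2% of all, and the CCAAT box in 67.9% of members and 34.5% of all but in 1 of the 7 cluster promoters. Duplicated promoters are not independent counts, and a match is a description of the letters only. Zfp945, which had the highest CPM of the cluster but not the highest per kilobase, carried the ETS core without the E-box. Its 250 bases at chr17:22867135-22867384, minus strand, are printed with that core in capitals.
Zfp945: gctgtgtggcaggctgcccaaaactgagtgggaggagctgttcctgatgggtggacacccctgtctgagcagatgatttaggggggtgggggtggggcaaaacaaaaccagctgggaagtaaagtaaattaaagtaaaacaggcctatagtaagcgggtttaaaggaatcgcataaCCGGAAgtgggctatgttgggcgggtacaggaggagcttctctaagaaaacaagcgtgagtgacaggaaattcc

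The chromosome 8 cluster gave fewer calls. Zfp930, which overlaps Gm33178 on the other strand, rose from 0.984, 6.24 and 4.34 CPM to 23.6, 17.6 and 8.40 CPM in wt (adjusted p = 0.0062) and from 2.61, 7.31 and 5.78 CPM to 21.8, 14.8 and 5.60 CPM in KO#1 (adjusted p = 0.0394). In KO#2 it was 7.15, 12.5 and 8.87 CPM at 0 h and 8.20, 10.1 and 16.1 CPM at 24 h (0.27 ± 0.50, adjusted p = 0.734). The wt groups did not overlap, whereas those of KO#1 and KO#2 did. Zfp963 and Zfp964 were called in no comparison, and Zfp964 stayed at 1.39 CPM or below in every library.

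At 24 h, with TMM factors, Zfp951 was the member called in both comparisons with wt. Between KO#1 and wt, 2 were called (9.86% of all genes, 6.25% higher and 3.61% lower), Zfp951 lower and Zfp956 higher. Zfp956 was 3.58, 4.91 and 4.69 CPM in wt and 7.94, 8.48 and 10.2 CPM in KO#1 (log2 fold change 1.02 ± 0.27, adjusted p = 0.0208), with no overlap. This call was lost without wt library 1 or KO#1 library 3, with library sizes alone and without a filter on low counts (adjusted p up to 0.119). Within same-numbered pairs, 5 members were higher in KO#1 in all 3 pairs and 15 lower, as were 29.1% and 31.3% of all genes. With the replicate number as a block shared by all 18 libraries the same 2 members were called (10.1% of all genes). Such a block does not model a pairing of these groups alone. Between KO#2 and wt, 4 were called (37.3% of all genes, 21.3% higher and 16% lower), Zfp951 lower, and Zfp939 (2.14 ± 0.48, adjusted p = 0.00234), Zfp945 and Zfp949 (1.34 ± 0.39, adjusted p = 0.0117) higher. Zfp939 was 0.763, 0.501 and 0.309 CPM in wt at 24 h and 2.30, 2.71 and 2.04 CPM in KO#2, a 4.40-fold difference that was called under every setting that tested it and without any 1 library. Zfp949 was no longer called without wt library 1 or 3. The 8 feeder markers summed to 71.0 to 219 CPM in KO#2 at 24 h, 19.0 to 34.6 CPM in wt and 38.7 to 51.8 CPM in KO#1, and 6 of 8 were higher in KO#2 than in wt (median 2.35). Of the primitive endoderm genes, whose sums are given above, 5 of 5 tested were higher in KO#2 than in wt (median 2.09) and 2 of 5 in KO#1 (1.33). The part of these markers in the members' differences was not tested.

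Between KO#2 and KO#1 at 24 h, 5 members were higher in KO#2 and none lower (35.4% of all genes called, 19.3% higher). These were Zfp935 (1.60 ± 0.48), Zfp942 (1.39 ± 0.46), Zfp931 (1.34 ± 0.51), Zfp941 (1.17 ± 0.30, adjusted p = 0.0062) and Zfp945 (1.12). Zfp941 was 9.41, 5.52 and 4.73 CPM in KO#1 and 9.51, 18.9 and 15.8 CPM in KO#2. Its groups came close at 9.41 and 9.51 CPM, and the call was kept without any 1 library. Leaving out KO#1 library 3 left Zfp941 alone (28.0% of all genes called), and leaving out KO#1 library 1 gave 8 members (29.3%). Without KO#1 library 2 or KO#2 library 1 the count was 2 (26.3% and 25.3%), and without KO#2 library 3 there were 3 (30.9%). RLE size factors gave 3 (35.5%), and a fit of only the compared groups gave 2 (35.0%). Feeder markers were higher in KO#2 than in KO#1 for 3 of 8 (median 1.54) and primitive endoderm genes for 2 of 5 (1.35), and their part in these calls was not tested. Of the 5 members called, 4 were also among the 19 called at 0 h, which is 4 of 5 of the later list and 4 of 19 of the earlier one. With library sizes alone, 25 members were called higher in KO#2 than in KO#1 and 25 higher than in wt at 24 h, while 60.1% and 61.4% of all genes were called and their median moved to 1.21 and 1.24, so counts at this time depend on the scaling.

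With the filter on low counts, edgeR called no member for a difference in response between a KO clone and wt. For KO#1, 65 genes or 0.391% of those tested were called (0.253% higher and 0.138% lower) and 1 member had an unadjusted p under 0.05. For KO#2, 1.47% of all genes were called (0.951% higher and 0.517% lower) and 6 members had an unadjusted p under 0.05. DESeq2 called 0 and 2 members, where it called 1.84% and 9.33% of all genes. Without a filter on low counts edgeR called 1 member for KO#1 and 6 for KO#2, all lower, with 1.06% and 5.9% of all genes called. The members' median response difference was -0.01 for KO#1 and -0.69 for KO#2, where 28 of 31 members were negative, against -0.04 and -0.02 for all genes. With library sizes alone the KO#2 median was -0.06 and that of all genes 0.57, so the members stayed below all genes under both scalings. The 6 two-cell-like markers had a median response difference of -2.27 for KO#2, with none called, and their part in the members' response was not tested. The lowest adjusted p values for KO#2 belonged to Zfp951 (0.0676) and Zfp961 (-1.59 ± 0.50, adjusted p = 0.0916).

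Genes of the machinery that KRAB proteins work through changed in both directions. Of 23 listed genes of Trim28 repression and H3K9 methylation, 21 were tested, and between KO#2 and wt at 0 h 5 were higher and 6 lower with a median log2 fold change of 0.02, where 21.5% of all genes were higher and 16.6% lower. Trim28, the scaffold that binds KRAB domains, was 1407, 840 and 1140 CPM in wt at 0 h and 597, 550 and 681 CPM in KO#2 (-0.89 ± 0.32, adjusted p = 0.0358). Setdb1, the H3K9 methyltransferase it recruits, was 232, 170 and 210 CPM in wt, 104, 89.6 and 139 CPM in KO#1 and 103, 95.5 and 114 CPM in KO#2 at 0 h. Both KO clones were below every wt library for Setdb1, with log2 fold changes of -0.88 ± 0.22 (adjusted p = 0.0209) and -0.97 ± 0.22 (adjusted p = 0.00331). At 24 h the differences of Setdb1 were -0.87 and -0.76, with adjusted p = 0.0155 and 0.0122. These calls depend on the scaling. With library sizes alone the median of all genes went from 0.10 to 0.54 in KO#2 against wt at 0 h and from 0.20 to 1.24 at 24 h. In KO#1 against wt it went from 0.02 to 0.16 at 0 h and from -0.02 to -0.05 at 24 h. Trim28 was then at -0.40 (adjusted p = 0.481) in KO#2 against wt at 0 h, and Setdb1 at -0.71 in KO#1 and -0.49 in KO#2 (adjusted p = 0.288 and 0.282). At 24 h Setdb1 was then at -0.88 in KO#1, near its value of -0.87 with TMM factors, but no longer called (adjusted p = 0.131). In KO#2 it was at 0.27 (adjusted p = 0.479), below the median of all genes under both scalings. The list had 8 genes higher and none lower in KO#2 against wt at 0 h with that scaling, where 33.1% of all genes were called, and its median moved with that of all genes, from 0.02 to 0.47.

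Other genes of the list were higher in KO#2, with TMM factors and with library sizes alone. Atrx, a chromatin remodeller of H3K9me3 regions, had a log2 fold change of 1.61 against wt and 2.17 against KO#1 at 0 h. Smarcad1, which interacts with Trim28, had 1.44 and 1.26. Zfp809, a KRAB protein that silences retroviral sequences, had 1.89 and 0.92, and Zfp445, which protects imprinted methylation, had 1.26 and 1.62. Against KO#1 at 0 h the list had 6 genes higher and 2 lower (median 0.29), where 15.1% and 11.3% of all genes were called. In wt over time 9 were higher and 3 lower (26% and 24.7% of all genes), among the higher Cbx1 and Cbx3, which encode HP1 proteins (1.55 and 1.60). With library sizes alone 2 were higher and 4 lower, with Cbx1 still called (0.93, adjusted p = 0.0207) and Cbx3 not (0.91, adjusted p = 0.0901).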

How the data were processed

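Total RNA of 18 libraries was sequenced for the authors with a stranded total RNA kit and paired 75-base reads, which were trimmed, aligned to GRCm38 with STAR, and quantified per gene. Whether counting used strand is not given in the sources used here. The deposited values are raw counts per gene. From these counts, edgeR 4.0.16 (R 4.3.3) was run with TMM factors, filterByExpr at a minimum count of 10 and a quasi-likelihood fit of 6 groups of 3 libraries. Contrasts were called at a Benjamini-Hochberg adjusted p under 0.05 over 16619 genes. DESeq2 1.42.0 was an alternative. SE is the log2 fold change over the root of F. The code was tested on simulated data. Positions come from GENCODE M21, promoters from RefSeq (GRCm38.p6). The symbol rule and the lists were chosen with earlier results of these data known, although the rule itself uses no measured difference. Named genes are the members called in each comparison (at most 12 largest per direction), the 5 with the highest mean, the highest and lowest of each cluster, members at no more than 3 counts in a whole group but over 3 throughout the other (none was found), Zfp932, Hmga2 and the lists. Deviations of same-numbered libraries were positively correlated in all 3 pairs only for KO#1 and wt at 24 h (0.480, 0.223 and 0.587). For KO#2 at 24 h and 0 h the correlations were 0.457, 0.333 and -0.00055. A replicate block gave the same 2 calls for KO#1 against wt at 24 h (10.1% of all genes called). The block was an effect shared by all 18 libraries, so it cannot show whether pairing these groups alone changes the calls. No 2 libraries held identical counts. The limit of 3 counts covers counting error only, whereas SD and SE include the spread between libraries.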

Additional observations from a re-analysis of the deposited data

How the results depend on the processing

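Alternatives changed counts of called members more often than directions: none of the single calls reversed, 680 repeats of single calls stayed past the threshold and 201 did not. The share of all genes called moved with the settings and stands in brackets after each count, so a count is not a change in the members alone. DESeq2 gave 5 members for KO#1 against wt at 24 h (12.8%) and 2 for the KO#2 response (9.33%). RLE size factors gave 3 for KO#2 against KO#1 at 24 h (35.5%). Library sizes alone gave 3 for KO#1 over time (44.1%), 23 for KO#2 against wt at 0 h (33.1%) and 26 at 24 h (61.4%), 1 for KO#1 against wt at 24 h (6.55%) and 25 for KO#2 against KO#1 at 24 h (60.1%). Without a filter, 2 were called for KO#2 over time (15.8%), 5 for KO#1 against wt at 0 h (5.23%) and 5 at 24 h (6.87%), and 1 (1.06%) and 6 (5.9%) for the responses of KO#1 and KO#2. With at least 10 counts in every library 12 members could be tested, and 3 were called for wt over time (60.3%), 3 for KO#1 (48.2%), 0 for KO#2 (26.9%), 8 for KO#2 against wt at 0 h (39.3%) and 9 for KO#2 against KO#1 at 0 h (29.9%). At an adjusted p under 0.01 the counts were 2 (24.1%) and 0 (13.7%) for KO#1 and KO#2 over time, 1 (3.01%) and 5 (18.8%) for KO#1 and KO#2 against wt at 0 h, 1 (4.85%) and 2 (21.6%) for the same at 24 h, and 5 (11.5%) and 1 (20.5%) for KO#2 against KO#1 at 0 h and 24 h. With only the compared groups in the fit they were 3 for KO#1 over time (37%), 6 for KO#2 over time (28.1%), 1 for KO#1 against wt at 0 h (3.45%) and 2 for KO#2 against KO#1 at 24 h (35%).

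Leaving out 1 library at a time gave 5 to 9 members for wt over time (39.4% to 46.9%), 2 to 8 for KO#1 (26.4% to 41.3%), 0 to 1 for KO#2 (14.8% to 23.8%), 0 to 2 for KO#1 against wt at 0 h (3.45% to 5.41%) and 1 to 3 at 24 h (5.99% to 7.52%), 6 to 15 for KO#2 against wt at 0 h (25.8% to 32.5%) and 2 to 5 at 24 h (26.5% to 35%), 9 to 13 for KO#2 against KO#1 at 0 h (15.3% to 20.9%) and 1 to 8 at 24 h (25.3% to 30.9%). For the responses there were 0 for KO#1 (0.035% to 0.225%) and 0 to 1 for KO#2 (0.296% to 3.3%). The cause of these changes was not tested, beyond the smaller number of samples or genes. The replicate block changed no count by over 1.5 times. Over time it left 5 members called in wt (52.0%), 5 in KO#1 (41.7%) and 1 in KO#2 (27.2%). Before induction, 2 members differed from wt in KO#1 (6.78%) and 12 in KO#2 (38.9%). After 24 h of induction these counts were 2 (10.1%) for KO#1 and 4 (38.7%) for KO#2. Between the clones the block called 19 members before induction (28.2%) and 6 after 24 h (36.8%). For the responses, 0 members were called in KO#1 (0.301%) or KO#2 (2.69%). With protein-coding genes alone, an alternative chosen after seeing the data, KO#2 against KO#1 gave 19 (25.3%) at 0 h and 7 (33.5%) at 24 h. KO#2 against wt gave 13 (38.6%) and 4 (35.7%). Values of members with few counts, Zfp964 and Zfp939 above all, rest on few reads, and the part of depth in their results was not tested.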
